A study of Mus musculus with 4 samples.

Results

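Broad accessible domains are taken here as the autosomal E10.5 ATAC-seq peaks at least 4000 bp wide. Of 99427 E10.5 peaks, 97739 lay on the 19 autosomes, and 621 of those met the width (0.635% of autosomal peaks). Together they held 3.27 Mb, or 3.94% of all autosomal peak length. The material was fore- and hindlimb tissue, sampled together, from embryos labelled wild type, for which no engineered allele or agent is named. There are 4 samples, 2 replicates titled E10.5 and 2 titled E11.5 (embryonic day), although the treatment protocol writes E10 for the younger pair. The labels do not say how many embryos entered a sample. Each stage is represented by 1 peak list joining its replicates, so neither replicate spread nor sample depth is known and the stages cannot be tested against each other. Wherever a share is printed with an interval, it is a 95% Wilson interval, which covers counting error only and treats neighbouring domains as independent.

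ATAC-seq uses the Tn5 transposase to cut and tag DNA that nucleosomes leave free. An active promoter or enhancer usually gives a short open stretch, whereas CpG-rich start sites and runs of closely spaced enhancers can give long ones. In the limb bud, the genes that set the axes (Hox, T-box and LIM homeobox factors, and the Wnt, BMP, FGF, Hedgehog and retinoic acid pathways) are known for such extended regulatory regions. In whole limb tissue, opening in more cells and wider opening in each cell cannot be told apart.

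The median domain was 4793 bp wide (quartiles 4317 and 5651 bp), 266 domains reached 5000 bp and 8 reached 10000 bp. The domains were chosen by their E10.5 width. The authors' signal value, which sums over a peak, grows with width, so both are given as description. Just inside the limit lay a domain of 4008 bp in the noncoding gene Nctc1, one of 4007 bp at Zbtb7a and one of 4000 bp shared by Peg3 and Usp29. Just outside lay peaks of 3998, 3998 and 3997 bp, near Car15, in Kdm6b and in Eri3. The median signal per bp was 3.08 in domains and 2.94 in peaks of 2000 to under 4000 bp, against 1.48 over all autosomal peaks.

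A few domains were set apart by extreme signal per bp, and 19 lay above the 99th percentile of autosomal peaks (5.07). The highest values were 36 on chromosome 1 (24611490 to 24616229, at Gm10222 and Gm10925, both pseudogenes), then 24.7 on chromosome 17 (39842947 to 39848883, over Rn18s-rs5 and AY036118). Next came 12.2 on chromosome 14 (19415665 to 19419748) and 10 and 7.44 on chromosome 9 (2999951 to 3005376 and 3009065 to 3038330), with no annotated gene. The last of these was the widest domain of all, at 29266 bp. The second widest, 15904 bp on chromosome 11 (3184169 to 3200072, over Sfi1 and Fau-ps2), had a signal per bp of 3.27. All 6 were covered almost entirely by E11.5 peaks (99.9 to 100%). Of the 19, 13 were promoter domains of genes such as Jun, Mnt, Sox12 and Ing1 or of histone clusters. Leaving out all 19 moved the median E11.5 coverage from 43.1 to 42.3%.

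A domain was placed at a promoter when the transcription start site of a protein-coding gene lay in it or within 1 kb of it. This held for 346 of 621 domains, 55.7% (51.8 to 59.6%), against 15.2% of all autosomal E10.5 peaks and 56.5% of those 2000 to under 4000 bp wide. A further 232 domains (37.4%) overlapped a gene of any kind but had no protein-coding start site within that distance, and 43 (6.92%) lay between genes. Some of these were at the start site of another kind of gene. With genes of any kind counted, 62.6% (58.8 to 66.4%) of domains were at a start site. A long interval meets a start site more easily than a short one. With the summit, rather than the whole domain, required within 1 kb of the start site, 37.5% (33.8 to 41.4%) of domains qualified. In the 346 promoter domains the median distance from summit to start site was 368 bp.

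To show what the promoters themselves look like, the windows from 250 bp before to 50 bp after the start site are printed for 6 genes (RefSeq, GRCm38.p6, which has the mm10 coordinates, 5′ to 3′ on the gene's strand, CG dinucleotides in capitals). Hoxa11 (chr6:52245761-52246060, minus strand), Prdm16 (chr4:154636824-154637123, minus) and Lmx1b (chr2:33641049-33641348, minus) belong to the widest regulator domains with a window in the RefSeq table. Those of E2f3 (chr13:29986014-29986313, minus) and Jag1 (chr2:137116471-137116770, minus) were covered most fully at E11.5. Evx1 (chr6:52313248-52313547, plus) was among the least covered.

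Hoxa11: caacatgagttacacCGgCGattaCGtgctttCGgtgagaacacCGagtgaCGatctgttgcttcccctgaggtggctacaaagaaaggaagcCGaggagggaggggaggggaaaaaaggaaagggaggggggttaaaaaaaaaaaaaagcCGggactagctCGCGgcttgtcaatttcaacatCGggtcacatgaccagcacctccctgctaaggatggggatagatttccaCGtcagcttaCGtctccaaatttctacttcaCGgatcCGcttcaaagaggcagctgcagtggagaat
Prdm16: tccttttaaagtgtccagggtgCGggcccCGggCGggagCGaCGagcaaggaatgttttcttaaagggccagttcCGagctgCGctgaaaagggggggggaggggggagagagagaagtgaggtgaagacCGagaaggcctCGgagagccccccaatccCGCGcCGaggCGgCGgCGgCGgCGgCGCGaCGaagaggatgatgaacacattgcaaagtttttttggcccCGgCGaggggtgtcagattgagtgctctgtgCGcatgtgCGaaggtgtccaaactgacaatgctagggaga
Lmx1b: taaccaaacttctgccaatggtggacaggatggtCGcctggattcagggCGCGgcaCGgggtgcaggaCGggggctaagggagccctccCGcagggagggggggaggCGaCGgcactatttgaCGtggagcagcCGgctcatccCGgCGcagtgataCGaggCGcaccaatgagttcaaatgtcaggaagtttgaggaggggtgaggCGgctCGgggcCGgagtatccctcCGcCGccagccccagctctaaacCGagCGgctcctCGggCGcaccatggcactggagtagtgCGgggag
E2f3: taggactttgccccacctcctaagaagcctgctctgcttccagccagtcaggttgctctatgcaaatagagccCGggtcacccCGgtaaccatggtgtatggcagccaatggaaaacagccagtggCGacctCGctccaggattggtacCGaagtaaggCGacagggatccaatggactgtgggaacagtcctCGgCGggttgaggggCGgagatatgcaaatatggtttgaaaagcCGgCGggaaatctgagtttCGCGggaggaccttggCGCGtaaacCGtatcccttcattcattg
Jag1: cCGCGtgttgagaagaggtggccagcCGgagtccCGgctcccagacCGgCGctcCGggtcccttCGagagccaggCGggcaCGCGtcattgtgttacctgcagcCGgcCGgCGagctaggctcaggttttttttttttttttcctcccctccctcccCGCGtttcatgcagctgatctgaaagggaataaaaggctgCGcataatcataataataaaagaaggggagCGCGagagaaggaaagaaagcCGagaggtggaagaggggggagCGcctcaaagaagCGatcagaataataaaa
Evx1: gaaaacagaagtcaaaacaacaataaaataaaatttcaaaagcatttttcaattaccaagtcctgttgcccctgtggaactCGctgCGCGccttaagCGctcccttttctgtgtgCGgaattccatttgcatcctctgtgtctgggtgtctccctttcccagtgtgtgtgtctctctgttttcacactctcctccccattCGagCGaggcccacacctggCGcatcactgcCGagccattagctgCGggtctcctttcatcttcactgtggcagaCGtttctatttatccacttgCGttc

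The windows hold 15, 24, 24, 16, 22 and 12 CG dinucleotides in the order printed. The well covered pair falls inside the range of the others. The RefSeq table held windows for 302 of the 383 domain genes, 379 windows in all. Their median was 22 CG dinucleotides and 64.3% G and C, against 14 and 57% over all 20085 autosomal windows and 2 and 45.7% over windows at no E10.5 peak. Windows at peaks of 2000 to under 4000 bp had a median of 25, so the widest peaks did not hold the most. The GC box GGGCGG was present on either strand in 70.4% of domain windows, 74.3% of windows at peaks of 2000 to under 4000 bp, 63.7% at any E10.5 peak and 47% of all windows. In the same order, CCAAT was present in 38.8, 35.9, 37.3 and 38.1%, and TATAAA in 7.65, 5.99, 6.85 and 12.7%. In these letters domain windows were thus like those at other E10.5 peaks. All 3 motifs were searched on both strands, GGGCGG itself contains a counted CG, and a match describes letters, not a bound site.

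The 346 promoter domains contained or adjoined the start sites of 383 protein-coding genes, 1.88% of the 20364 autosomal genes with a located start site. Most of these domains (315) had 1 gene, 23 had 2, and 8 had more. Membership in families of transcription factors (with their cofactors) or of signalling pathways was read from gene symbols. By this measure 138 of the 383 genes, 36% (31.4 to 41%), were regulators, 83 of them transcription factors and 55 signalling genes. The same share was 7.29% among all autosomal protein-coding genes and 8.95% among genes with any E10.5 promoter peak. The share was not steady over narrower peaks. Genes whose widest promoter peak measured 1000 to under 2000 bp had 5.98% regulators (5.47 to 6.53%), and those at 2000 to under 4000 bp had 14.3% (13.2 to 15.5%). The interval of the domain genes overlapped neither, but the families were chosen with earlier results of these data known.

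**Figure D1:**
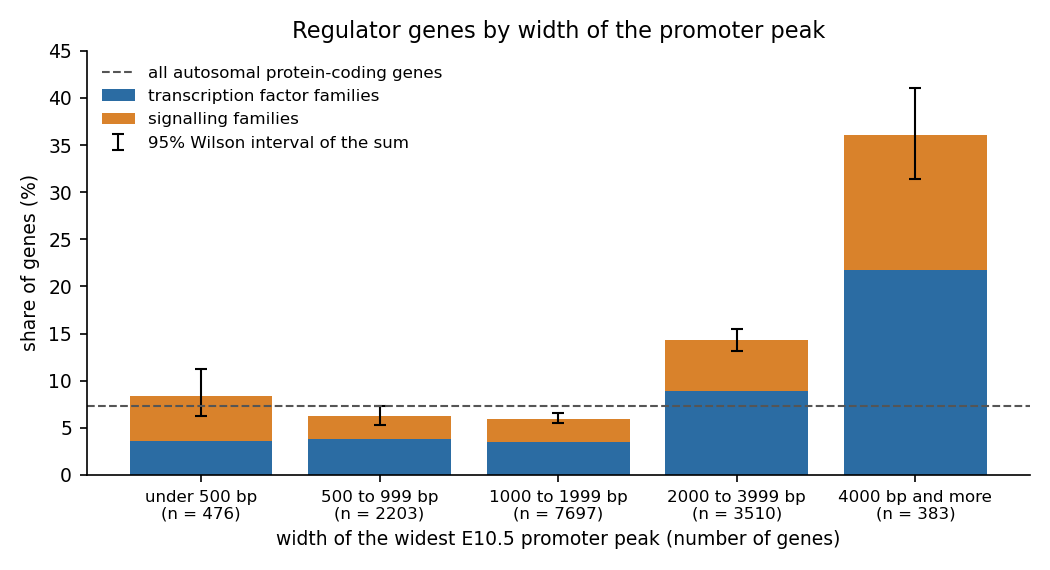
Share of genes in transcription factor families (blue) and signalling families (orange) by width class of each gene's widest E10.5 promoter peak, with the number of genes under each bar. Error bars are 95% Wilson intervals of the sum, the dashed line is the 7.29% of all autosomal protein-coding genes, and the bar for 4000 bp and more stands at 36%.

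Among transcription factors, the Hox genes, which assign position along the limb and body axes, had 8 of 39 members at domains. They were Hoxa9, Hoxa10, Hoxa11, Hoxa13, Hoxc5, Hoxd9, Hoxd11 and Hoxd12. Other homeobox genes contributed 10 of 166, including Lmx1b, the dorsal limb determinant, Lhx2 and Lhx9, which act in the distal limb mesenchyme, Msx1, Prrx1, Alx4 and Irx3. Developmental zinc finger genes gave 18 of 151, with the Hedgehog effectors Gli1 and Gli2, Sall1, Snai1 and Zbtb16 among them. Basic helix-loop-helix genes gave 11 of 112, including Scx, the tendon progenitor factor, Hes1, Id2, Myc and Mycn. Of 16 T-box genes, Tbx2 had a domain, and no member of the Pax or AP-2 families did (0 of 9 and 0 of 5). The T-box, Pax and AP-2 families are too small to set against the 1.88% of all genes.

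Signalling genes were led in number by the receptor tyrosine kinase families, with 19 of 129 members. These included the platelet-derived growth factor Pdgfa and the receptors Pdgfra and Pdgfrb, the insulin receptor substrates Irs1 and Irs2, Vegfa, Fgf18 and the FGF feedback inhibitors Dusp6 and Spry2. Guidance genes followed with 13 of 69, such as the ephrins Efna1, Efna3, Efna4, Efna5 and Efnb2. The Wnt pathway gave 8 of 90: the ligands Wnt5a, Wnt9a and Wnt11, the receptors Fzd7, Fzd8 and Fzd10, the coreceptor Lrp5 and the feedback inhibitor Axin2. The Notch pathway gave 4 of 18, namely Notch1, its ligand Jag1, Lfng and Nrarp. BMP and TGF-beta genes gave 4 of 79, namely Bmp7, Gdf6, Gdf11 and Tgfb3. Hedgehog genes gave 2 of 16, the receptor Ptch1 and the coreceptor Gas1, and retinoic acid genes gave Crabp2 and Dhrs3 of 13. In contrast, chemokine, cytokine and Hippo genes gave 3 of 227, close to the background of 1.88%.

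Gene lists written for limb tissue were chosen with earlier results of these data known and are described by counts. Of 80 limb patterning genes, 79 had an E10.5 promoter peak and 25 had a domain, where 1.88% of all genes had one. Cartilage and skeletal genes had 5 of 21 at domains, namely Scx, Sox9, Sox6, Snai1 and Col2a1, the cartilage collagen gene. Fli1, of the Ets family, was the endothelial gene with a domain (1 of 15). The ectoderm (0 of 15), blood (0 of 12), muscle precursor (0 of 13) and nerve and glia (0 of 13) lists had none, although 13, 9, 13 and 12 of their members had a narrower promoter peak. The 30 regulators of other organs and the 40 ribosomal protein genes had none either. At 1.88% of all genes, a count of 0 in lists of this size is near the background and is no result about them. All 40 ribosomal protein genes had a narrower promoter peak.

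Genes outside the regulator families made up the other 245. Core and linker histone genes accounted for 28 of them, of 73 histone genes located, in 10 domains, of which 8 lay on chromosome 13. These 10 domains had a median of 76.1% E11.5 coverage and a signal per bp of 5.09. The D-type cyclin genes Ccnd1, Ccnd2 and Ccnd3, which drive entry into the cell cycle, each had a domain, of 5379, 8355 and 4150 bp. They were singled out after their values were seen, as were the actin genes Actb and Actg1 (6598 and 4464 bp).

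The E11.5 peaks took no part in the choice of domains, but percent coverage divides by the E10.5 width that did, so it is given as description and its comparison with narrower peaks is partly set by that width. Summed over all domains, 44.4% of their length lay under E11.5 peaks, and the median domain was 43.1% covered (quartiles 23.6 and 67%). An E11.5 peak touched 568 of 621 domains, 91.5% (89 to 93.4%), against 32.0% of all autosomal E10.5 peaks and 86.7% of those 2000 to under 4000 bp wide. The E10.5 summit itself lay under an E11.5 peak in 88.1% (85.3 to 90.4%) of domains, against 31.6% of all peaks. In peaks 2000 to under 4000 bp wide the share was nearly the same, 85% (84.1 to 85.9%). Coverage of at least 90% was seen in 30 domains, 4.83% (3.4 to 6.81%), and its share among narrower peaks was not counted. The upper quartile of coverage, 67% in domains, was 78.4% in peaks 2000 to under 4000 bp wide and 39% over all autosomal peaks. By number of E11.5 peaks, 238 domains held 1, 203 held 2, 93 held 3, and 34 held 4 to 6. Thus 330 of 621 (53.1%) held 2 or more, as did 986 of 5744 peaks 2000 to under 4000 bp wide. A longer interval can hold more of them. In the E11.5 list 52 autosomal peaks reached 4000 bp, 32 of them touching a domain. That list is also the shorter one (37548 peaks), its depth is unknown, and a change in accessibility and a lower sensitivity of the list cannot be told apart.

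Promoter domains had a median coverage of 58.7% (95% order-statistic interval of the median 54.5 to 62.6%, as for the medians below). Such an interval also treats neighbouring domains as independent. In domains inside genes it was 23.4% (17.2 to 27.9%) and between genes 27.1% (19.2 to 35.8%). The 53 domains with no E11.5 peak divided into 48 in genes, 3 between genes and 2 at promoters. Regulator and other promoter domains had similar values, 56.9% (50.8 to 63.6%) and 61.4% (54.2 to 64.5%), with overlapping intervals. Signal per bp at E10.5 moved with the split by place, with a median of 3.31 at promoters and 2.7 in genes, and not with that by gene class (3.32 and 3.31). Over 4 equal groups of domains by signal per bp median coverage went from 13.2% in the lowest group to 71.8% in the highest. Within the lowest group the medians were 37.6% at promoters and 7.77% elsewhere, and within the highest 74.4% and 52.7%. Median signal per bp still differed within the lowest group, 2.26 at promoters and 1.89 elsewhere. In the highest group it was 4.09 and 4.07. The part of signal in the difference by place was not tested. Among narrower peaks, promoter peaks of 1000 to under 2000 and of 2000 to under 4000 bp had medians of 80.9% and 71.4%, above the domains, though their summits lay under an E11.5 peak about as often (94% and 97.1%, against 96.8% in promoter domains).

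**Figure D2:**
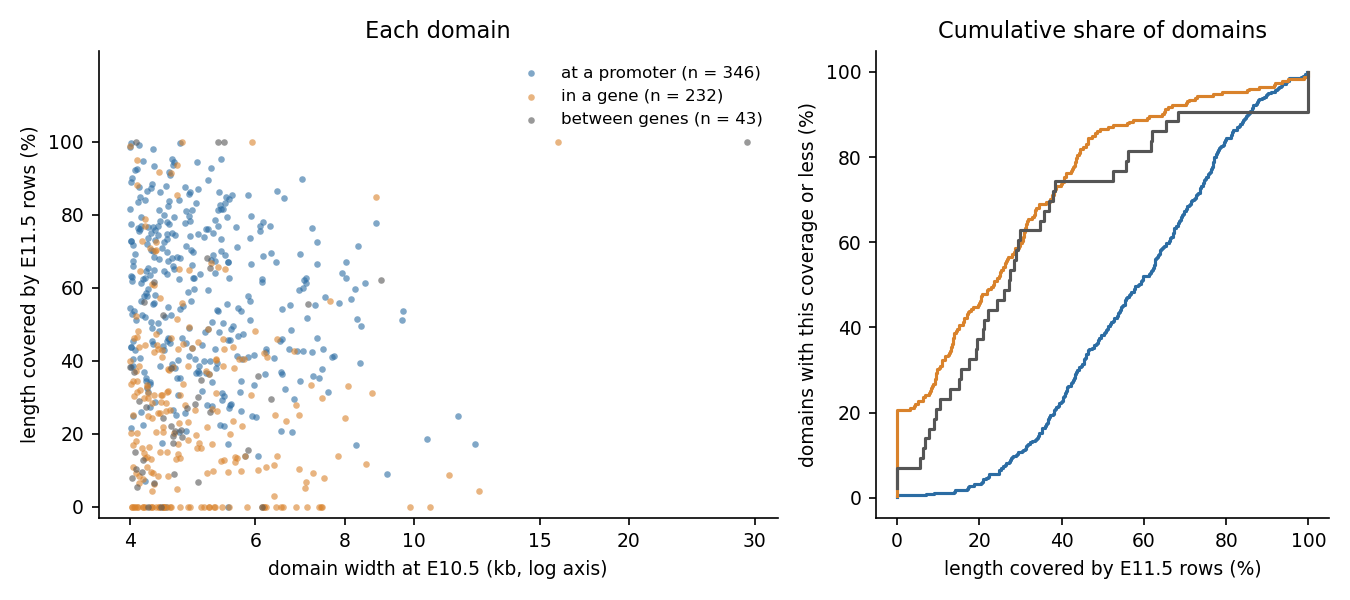
Left, each of the 621 domains by E10.5 width (log axis) and the percentage of its length under E11.5 peaks; right, the cumulative share of domains by that percentage, in the same colours. Promoter domains (blue, median 58.7%) lie to the right of domains in genes (orange, 23.4%) and between genes (grey, 27.1%), and the widest point is the fully covered interval on chromosome 9.

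Coverage was highest around the start site, although E11.5 peaks also lay farther out. For this, 264 domains that span exactly 1 protein-coding start site were aligned by strand. They reached a median of 2060 bp upstream and 2904 bp downstream, and 179 of them (67.8%, 61.9 to 73.1%) were longer downstream. Promoter peaks of 2000 to under 4000 bp leaned the same way (73.2% longer downstream). In the 500 bp after the start site 91.2% of domain length was covered at E11.5, and in the 500 bp before it 84.7%. Between 1000 and 1500 bp from the start site coverage was 45.7% upstream and 56% downstream. Between 2500 and 3000 bp it was 38.2% upstream and 33.9% downstream. Promoter peaks of 2000 to under 4000 bp had almost the same values next to the start site (91.8 and 85.5%) and lower ones at 1500 to 2000 bp downstream (32.5%, against 46.8% in domains). That bin lies near the edge of these narrower peaks, which reached a median of 1476 bp downstream. Between 2000 and 2500 bp upstream the values were closer (33.7%, against 36.1% in domains).

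**Figure D3:**
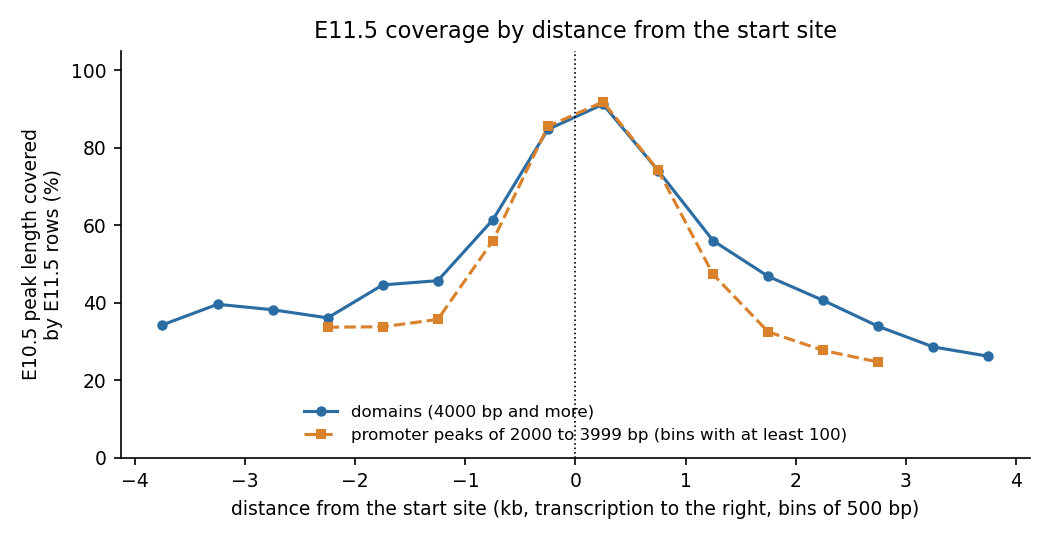
Percentage of E10.5 peak length covered by E11.5 peaks in 500 bp bins by distance from the start site, for the 264 domains with 1 start site (blue circles) and for promoter peaks of 2000 to under 4000 bp (orange squares, bins with at least 100 peaks). Both curves peak at 91.2 and 91.8% just after the start site and fall on either side.

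The Hox domains were among the less covered of the promoter domains, with a median of 29.6% and a range of 17.2 to 36.3% over 8 domains. All 8 summits lay under E11.5 peaks. The Hoxa11 domain (chromosome 6, 52242359 to 52254531) was the widest at a promoter, at 12173 bp. It reached 8721 bp upstream and 3451 bp downstream of the start site, over the antisense gene Hoxa11os. Its 3 E11.5 peaks lay from -447 to 536, from 760 to 1303 and from 1528 to 2091 bp, which left the flank beyond -447 bp uncovered. Hoxd11 (chromosome 2, 74678461 to 74686037, 7577 bp) kept 1 E11.5 peak, from -795 to 1593 bp, and was 31.5% covered. In the HoxA cluster Hoxa9, Hoxa10 and Hoxa13 were 33.7, 20.6 and 25.7% covered.

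Other limb factors differed widely. Lmx1b (chromosome 2, 33637843 to 33647014, 9172 bp) was 9.13% covered, by a peak of 541 bp at the start site and one of 296 bp upstream. Scx (chromosome 15, 76456284 to 76466733, 10450 bp, also over Bop1) was 18.6% covered, Tbx2 (chromosome 11, 85828505 to 85834057) 28.1%, Irx3 22.1% and Alx4 20.5%. Those values all fell below the median of promoter domains. Sall1, Lhx9, Sox9 and Prrx1 were covered to 62.6, 63.8, 65.3 and 67%. Id2, an inhibitor of helix-loop-helix factors, and Fli1 each held 6 E11.5 peaks, the most of any domain, in 7202 and 7851 bp.

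Pathway genes ranged over nearly the full scale. Wnt5a (chromosome 14, 28502268 to 28511900, 9633 bp) extended 7357 bp into the gene and held 4 E11.5 peaks covering 51.1%. Bmp7 (chromosome 2, 172933134 to 172941532, 8399 bp) was 39.5% covered, by 1 peak over the start site and 1 between 5647 and 6790 bp downstream. Rarg, a retinoic acid receptor, had a pair of domains, of 8318 and 5180 bp, covered to 51.4 and 40%. At the other end, the Hedgehog target genes Ptch1 (chromosome 13, 63562976 to 63567094) and Gli1 (chromosome 10, 127338725 to 127342799) were covered to 99.2 and 92.3%. Jag1 (chromosome 2, 137113385 to 137118095) reached 99.6%, E2f3, a cell cycle factor (chromosome 13, 29983041 to 29987053), 99.6%, Myc 95.2% and Lmo4 94.6%. The FGF feedback genes Dusp6 and Spry2 stood at 79.8 and 87.2%.

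The lowest values at regulator promoters were 0 for Sema3b, a semaphorin (chromosome 9, 107604778 to 107610264, 5487 bp), and 7.05% for Evx1, next to the HoxA cluster (chromosome 6, 52313313 to 52317513). After Lmx1b followed Srebf1 (14.1%) and Wnt11 (16.9%). Signal per bp was lower in these 5 (1.73 to 2.56) than in the 5 most covered regulator domains (3.32 to 4.51), and its part in the difference was not tested. The second promoter domain with no E11.5 peak lay 899 bp from Cwc22 on chromosome 2 (77947255 to 77951747).

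**Figure D4:**
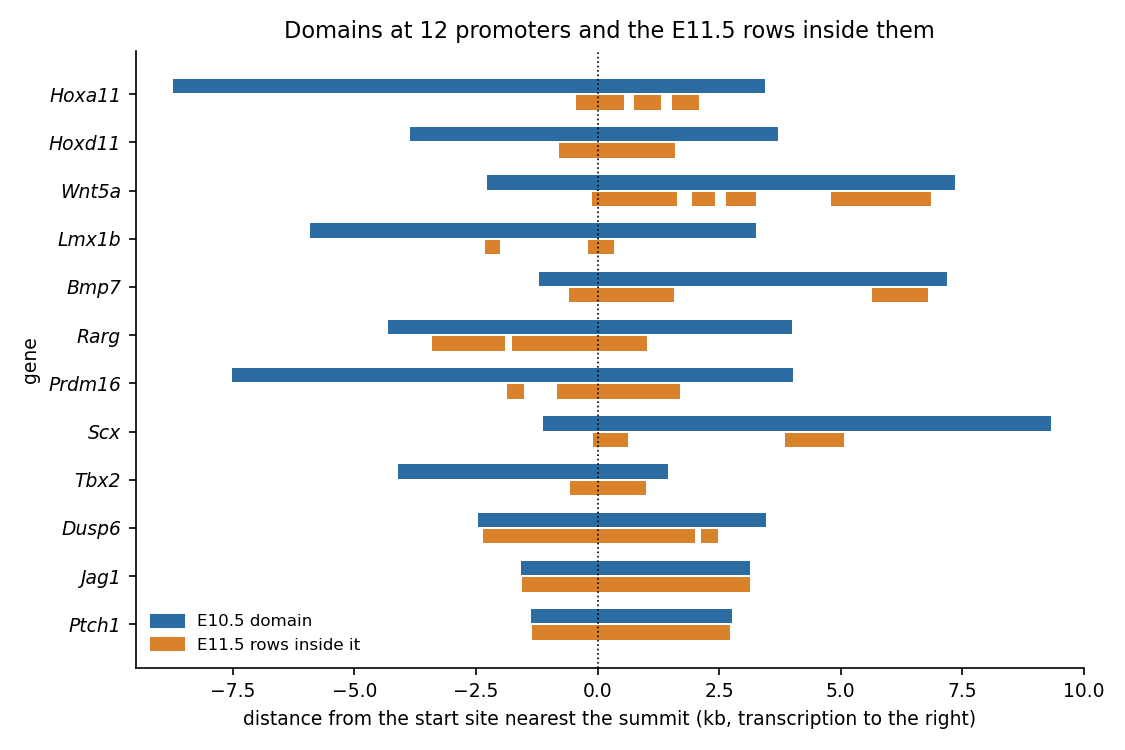
E10.5 domains (blue) and the E11.5 peaks inside them (orange) at 12 promoters, drawn by distance from the start site nearest the summit, with transcription to the right. The genes were picked after their values were seen, to show the span from 9.13% covered (Lmx1b) to 99.6% (Jag1).

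Domains away from promoters lay a median of 29.8 kb from the nearest protein-coding start site. Of 275 such domains, 60 lay within 10 kb and 31 beyond 100 kb. The nearest gene was a regulator for 65 of them, 23.6% (19 to 29%), against 18.1% of all E10.5 peaks away from promoters and 23.7% of those 2000 to under 4000 bp wide. The share of regulators among nearest genes was therefore like that of the next narrower peaks. The regulator nearest to most domains was Prdm16, a zinc finger regulator, with 7 (3.67% of their length covered at E11.5). Lmx1b had 5 (7.34%), the netrin receptor gene Unc5b 3 (16.6%), and Cyp26b1, Nr2f2, Srebf1, Gli2, Wnt11 and Tcf7l2 had 2 each. Cyp26b1, which breaks down retinoic acid in the distal limb, had the widest domain with no E11.5 peak (chromosome 6, 84571925 to 84582446, 10522 bp, overlapping the gene). The next widest without one lay in Ssbp3 (chromosome 4, 106980352 to 106990216, 9865 bp), in the noncoding gene 2900052L18Rik beside Bahcc1 (chromosome 11, 120223311 to 120230740, 7430 bp), in Prdm16 (7413 bp) and in Ccdc85c (7358 bp). By contrast, a pair of intergenic domains on chromosome 6 (114549482 to 114556586 and 114559488 to 114568483), 90960 and 100966 bp from the start of Hrh1, held 5 E11.5 peaks each.

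Domains were often neighbours. Chaining those with gaps of at most 200 kb gave 391 loci, of which 285 held 1 domain and 106 held the other 336. The largest locus spanned 619 kb of chromosome 4 (154169550 to 154789046) with 19 domains, from Megf6 across Arhgef16 to beyond Prdm16. The next covered 340 kb of chromosome 8 (120226459 to 120566863) with 16 domains, 2 of them at start sites of Gse1, which encodes a chromatin-associated coiled-coil protein. Loci of 7 domains lay at Zmiz1 (chromosome 14), at Ssbp3 (chromosome 4) and from Bahcc1 to Actg1 (chromosome 11). Another of 7 domains ran from Comp to Kcnn1 (chromosome 8, 70371742 to 70866656). Lmx1b, which the limb list names, had 6 domains in 89 kb.

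By the median over domains, E11.5 coverage was lower where domains were crowded. Summed over the locus it was 10.2% at Prdm16, 21.4% at Gse1, 13.8% at Zmiz1, 18.2% at Ssbp3, 20.4% at Bahcc1 and 7.79% at Lmx1b. Over the 7 domains from Comp to Kcnn1, however, it was 53.7%. Crowded loci differed widely, from 7.79 to 55.4% over all loci of 5 or more domains. The highest value was that of 6 domains near Hrh1 on chromosome 6 (114510776 to 114610071), and 5 domains from Ccnd3 to Foxp4 on chromosome 17 (47592919 to 48099918) were 47.8% covered. The median was 55.5% (48.9 to 62.3%) for the 285 domains alone in their locus, 40.5% (36.5 to 43.1%) in loci of 2 to 4 and 17.6% (12.6 to 26.1%) in loci of 5 or more. For domains away from promoters the corresponding medians were 31.1, 25.1 and 11.6%, and for promoter domains 63.4, 53.6 and 47.3%. Signal per bp of the domains away from promoters also fell, from 2.85 to 2.73 and 2.41, whereas at promoters it was 3.31, 3.28 and 3.39. Its part in the difference was not tested. Within a locus, a promoter domain was often but not always the most covered. It was so at Gse1 (53.6%), at Ssbp3 (57.5%) and, by the Actg1 domain, from Bahcc1 to Actg1 (64.5%). At Zmiz1 the promoter domain was 75.7% covered, and of the 5 domains next to it 4 had no E11.5 peak and the other was 8.7% covered. In the Prdm16 locus the Prdm16 promoter domain (chromosome 4, 154632861 to 154644398, 11538 bp) was 24.9% covered. The Megf6 promoter domain had the highest value there, 43.7%. A domain away from promoters (154246062 to 154250190), 49.7 kb from the nearest start site, that of Arhgef16, was 38.6% covered. Of the 18 domains of the locus besides that at the Prdm16 promoter, 8 had no E11.5 peak. At Lmx1b the promoter domain was 9.13% covered, and a domain inside the gene (33592174 to 33596270) 31.6%.

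**Figure D5:**
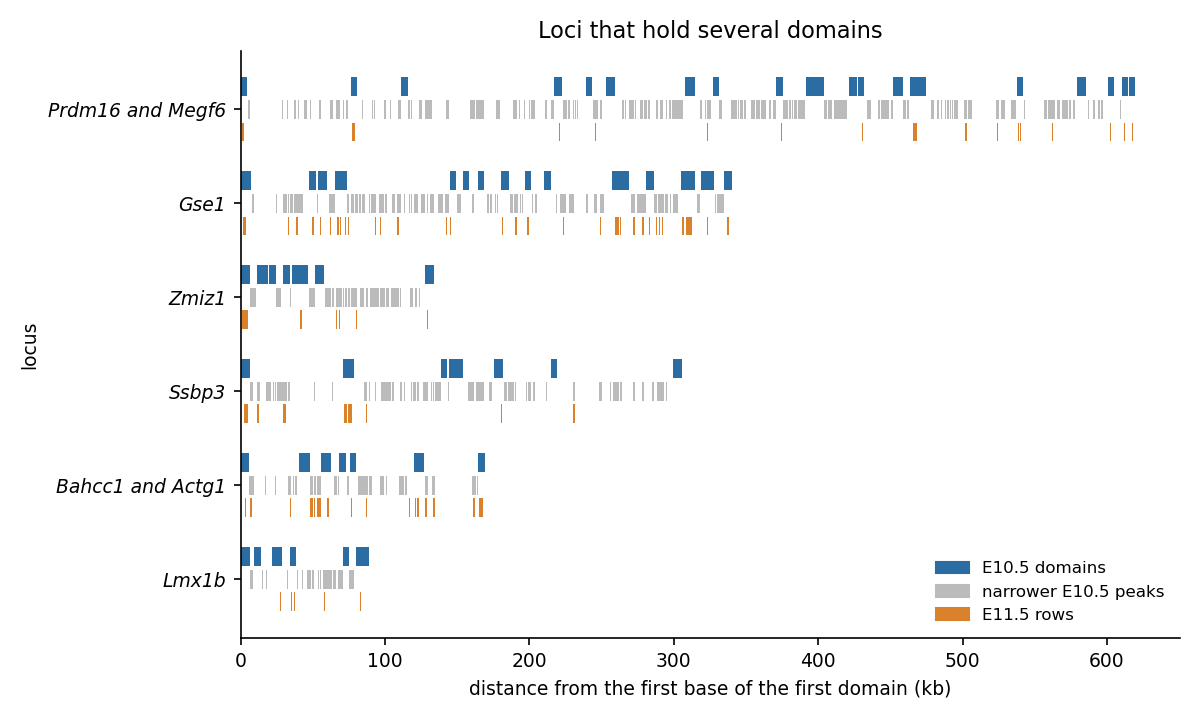
The 5 loci with the most domains (ties by total domain length), and Lmx1b, drawn from the first base of the first domain: E10.5 domains (blue), narrower E10.5 peaks (grey) and E11.5 peaks (orange). Over the Prdm16 locus there were 165 E10.5 peaks and 27 E11.5 peaks, and over Lmx1b 25 and 7.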

How the data were processed

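ATAC-seq accessibility was measured in wild-type mouse limbs, with 2 replicates at each of 2 stages, grouped by sample title. The submitters' processing notes name cutadapt, Bowtie2, SAMtools, deepTools and Genrich, with no role or version, and the build mm10. How the replicates were joined, the filters and any Tn5 shift are not given in the sources used here.

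Per the file headers, the deposited lists are narrowPeak on mm10. The deposited signal value is a total over the peak, with a minimum just above 200. The deposited score equals signal divided by width times 1000, capped, and was not used. The deposited −log10 p-value belongs to each peak and served in alternatives. All q-values (100%) are -1.

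The members, families and lists were chosen with earlier results of these data known. Start sites came from RefSeq promoter windows (GRCm38.p6) for 16457 of 20665 autosomal protein-coding genes. For 3907 more, the outer gene end was used with the strand from GENCODE M1, whose NCBIM37 coordinates were not used. Exon positions were not used. One locus is not reported here. Peaks overlap from 1 bp. Named domains are the 12 widest, those next to 4000 bp, and those with the highest and lowest coverage, most E11.5 peaks, highest signal per bp and most neighbours, with the list genes. The other names follow from family counts. Interval functions were tested on simulated data. Python 3.11.15, numpy 2.4.6, pandas 2.3.3 and scipy 1.17.1 were used. Coordinates are mm10 and 1-based.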

Additional observations from a re-analysis of the deposited data

Results flagged for a closer look

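Peaks outside the autosomes entered no comparison. Among 1688 such E10.5 peaks, 18 were at least 4000 bp wide, or 1.07% (95% Wilson interval 0.676 to 1.68%). A count of 0 would allow up to 0.178%, a limit that any count above 3 passes, so passing it is no test. Among autosomal peaks the share was 0.635% (0.587 to 0.687%), and the 2 intervals overlap. They comprised 9 on the X chromosome, 3 on the Y, 1 on the mitochondrial genome and 5 on other sequences. There are no control samples to set them against.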

How the results depend on the processing

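No paired analysis was possible because the replicates of a stage share 1 list, which also prevents leaving a replicate out. Over 14 alternatives, 19 values kept to the criterion (the 95% interval of the reported value, or 1.5 times for a count) and 13 moved. The number of domains, 621 as reported, was 1705 with a minimum width of 3000 bp, 266 with 5000 bp and 1306 with peaks joined over gaps of up to 500 bp, by construction. The promoter share, 55.7%, was 61.3% with 5000 bp, 37.5% by summit and 62.6% with genes of any kind. The regulator share, 36%, was 28.2% with 3000 bp and 41.1% with 5000 bp. Median coverage, 43.1%, was 48.6% with 3000 bp, 34.3% with joined peaks, 35.3% with E11.5 peaks of −log10 p of at least 5, 50.4% with E11.5 peaks extended by 100 bp and 45.8% over domains with an E11.5 peak. The depth of the lists is unknown and limits every coverage value.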

Other observations

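Not every wide E11.5 peak sat in a domain. Of 52 autosomal E11.5 peaks of at least 4000 bp, 20 touched none, and 2 of those touched no E10.5 peak at all. At Marcks (5844 bp), Dusp4 (4876 bp) and Pcdh17 (4313 bp) the wide E11.5 peak was 97.8, 97.9 and 97% covered by 2 narrower E10.5 peaks each. Most of the other wide E11.5 peaks without a domain lay between 47652727 and 47766434 on chromosome 6 or between 20328154 and 20552288 on chromosome 8.

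Domains were spread unevenly over chromosomes. Per 1000 E10.5 peaks there were 10.3 on chromosome 8, 9.49 on chromosome 11 and 8.99 on chromosome 4, and 2.71 on chromosome 16. The Gse1 locus supplied 16 of the 57 on chromosome 8, and the Prdm16 locus 19 of the 62 on chromosome 4.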
